A study of Mus musculus with 15 samples.

Results

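The beta cells of the pancreatic islets sense glucose and secrete insulin, and 9 genes that serve this function were followed across 15 pancreas RNA-Seq libraries. Glp1r encodes the receptor for the incretin hormone GLP-1, which is coupled to cyclic AMP and strengthens insulin secretion when glucose is high. Slc2a2 encodes the glucose transporter GLUT2, and G6pc2 encodes the islet glucose-6-phosphatase, which turns glucose-6-phosphate back into glucose. Abcc8 encodes the sulfonylurea receptor subunit SUR1 of the KATP channel, whose closure depolarizes the beta cell, and Slc30a8 encodes the zinc transporter ZnT8 of the insulin granule. Pdx1, Nkx6-1 and Mafa are transcription factors of beta cell identity and maturity, and Ucn3 encodes urocortin 3, a peptide released together with insulin by mature beta cells. These genes were chosen by their role and because the measured values of Glp1r were higher in HC mice than in their controls, so their values in the HC comparison are a description, with no test. The 9 genes are among 49585 in the larger count tables, and all of them passed the filter on low counts in every comparison.

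All mice were C57BL/6, and each library held RNA pooled from 3 mice. Pancreas is the labelled tissue throughout, while the study's text describes the KC and KMC samples as pancreatic tumours. The study expressed hematopoietic progenitor kinase 1 (HPK1), or M46, a form of it without kinase activity, in acinar cells, the cells that make digestive enzymes. The transgenes were switched on with tamoxifen by Bac-cre, a Cre recombinase under the acinar elastase I promoter. Per the study's results text, the HC, MC and control mice were given cerulein, a peptide that causes pancreatitis. Its methods instead give PBS as the injection of littermate controls, so the treatment of the controls is not settled. For the aged KC and KMC mice whose tumours were sequenced no cerulein is named. The first table holds 3 MC libraries (labelled HPK1-M46 transgenic) and 3 libraries of Bac-cre controls (labelled B control), at 2 months. The second holds 3 HC libraries (labelled HPK1/B) and 2 controls labelled WT, which the design text calls wild type (B), at 4 months. The third holds 2 KMC libraries (M46/Ras/B) at 9 months and 2 KC libraries (Ras/B) at 15 months, and both of these groups carry the alleles labelled Ras and B. Library totals ranged from 29766575 to 38745907 counts. Each table was fitted with its own controls, and p-values measure only the spread between these pools.

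Before the results, some libraries stood apart from the others of their table. HC 3 had 48.4 CPM (TMM-scaled counts relative to library size) of the Y-linked gene Ddx3y and 0.761 CPM of Xist, the RNA of the inactive X chromosome, whereas the other 4 libraries of its table had 0 counts of Ddx3y and 579 to 929 CPM of Xist. The HC log2 fold changes of the 9 genes are therefore also given without HC 3. Both KC libraries expressed Ddx3y (10.7 and 17.3 CPM) and both KMC libraries expressed Xist (406 and 306 CPM), so sex, age and genotype cannot be told apart in that comparison. The MC table lists neither Xist nor Ddx3y, so the sex of its pools could not be checked from these genes. Map4k1, the mouse gene of HPK1, was lower in the libraries labelled HC (6.77 ± 1.52 CPM, SD, n = 3) than in controls (13.5 ± 2.75 CPM, SD, n = 2), against the direction of the label. It was at 7.54 ± 0.763 CPM (SD, n = 3) in MC and 3.43 ± 0.958 CPM (SD, n = 3) in controls, and in the third table the KMC pools had 8.65 ± 3.86 CPM (SD, n = 2) where the KC pools had 1.05 ± 0.71 CPM (SD, n = 2). Ptprc, which encodes the leukocyte antigen CD45, differed in the same direction in each table. Its log2 fold change was -0.95 in HC beside -0.99 for Map4k1, 1.66 in MC beside 1.13, and 2.78 in KMC beside 2.99, and the part of leukocytes in the Map4k1 values was not tested.

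The tissue of the HC table also differed from that of the other tables. A list of 36 acinar genes took 6.03 to 9.39% of the counts in the HC table, 39.8 to 58.4% in the MC table, and 26.2 to 71.7% in the KMC table. A list of 11 stomach genes summed to 9392 to 9519 CPM in HC and to 4294 and 2653 CPM in controls. It summed to 311 to 794 CPM in the MC table, which lists 7 of these genes, to 744 and 311 CPM in KMC, and to 4859 and 1370 CPM in KC, where nearly all of it was Tff2 (4840 and 1342 CPM). In the HC table too the stomach gene with the highest mean was Tff2, a mucosal trefoil peptide, while the acid pump subunit Atp4b was at or below 3 counts in all 5 libraries and Gif was so in HC 1 and HC 3. Islet tissue was present in every library, with Ins2, an insulin gene, the gene of highest mean in each table within a 25-gene beta cell reference list that contains none of the 9 genes.

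RefSeq promoter windows (GRCm38.p6) matched 6 of the 9 genes, Glp1r, Slc2a2, G6pc2, Nkx6-1, Pdx1 and Ucn3. The windows of the incretin receptor and of both glucose-handling genes are shown, and a link between sequence and level was not tested. Each is the 200 bases from 250 to 51 bases before the RefSeq start, on the strand of the gene, with capitals marking TAAT, the core of homeodomain sites, on either strand. The Glp1r window lies at chr17:30901617-30901816, that of G6pc2 (the first of its starts) at chr2:69210823-69211022 and that of Slc2a2 at chr3:28697653-28697852, all on the plus strand.
Glp1r: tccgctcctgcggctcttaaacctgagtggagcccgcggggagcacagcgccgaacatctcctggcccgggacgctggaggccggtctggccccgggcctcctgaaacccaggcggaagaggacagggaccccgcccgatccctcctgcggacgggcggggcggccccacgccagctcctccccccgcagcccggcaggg
G6pc2: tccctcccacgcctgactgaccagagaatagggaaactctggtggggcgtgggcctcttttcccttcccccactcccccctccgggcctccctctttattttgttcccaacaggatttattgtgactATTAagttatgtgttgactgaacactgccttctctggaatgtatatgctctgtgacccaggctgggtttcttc
Slc2a2: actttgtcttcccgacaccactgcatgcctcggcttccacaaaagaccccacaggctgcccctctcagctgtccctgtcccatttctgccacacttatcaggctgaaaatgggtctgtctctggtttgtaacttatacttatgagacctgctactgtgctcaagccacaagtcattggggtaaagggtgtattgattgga

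The Glp1r window was 75% G and C, against a median of 51.5% over all 32851 windows, 52% for the printed G6pc2 window and 50% for Slc2a2. The windows of Nkx6-1, Pdx1 and Ucn3 were 64%, 50% and 43% G and C. Of 4 short motifs searched on both strands, the Glp1r window held 0. They were the homeodomain core TAAT, found in 50.1% of all windows, the partial Maf factor site TGCTGA, found in 13.1%, the E-box CANNTG, found in 59%, and the partial cyclic AMP response element TGACG, found in 12.7%, and matches of the Maf site and the E-box can overlap. The printed G6pc2 window held 1 TAAT and the Slc2a2 window held 1 CANNTG. The window of the other G6pc2 start (chr2:69219699-69219898, plus strand, 44.5% G and C) held 2 TAAT, 1 TGCTGA and 2 CANNTG. Ucn3 had 2 TAAT and 2 CANNTG matches, Pdx1 had 2 CANNTG and Nkx6-1 had 1 TGACG. The Nkx6-1 window, like that of Glp1r, held 0 TAAT, 0 TGCTGA and 0 CANNTG. These matches describe letters in the windows and are not binding sites measured here.

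Glp1r (ENSMUSG00000024027) spans 30901817 to 30940791 on the plus strand of chromosome 17 (GRCm38, GENCODE M21). In controls of the HC table it was at 87.5 and 85.9 CPM. In HC it was at 225 CPM in HC 1, 227 CPM in HC 2 and 194 CPM in HC 3. The groups did not overlap, with means of 215 ± 18.3 CPM (SD, n = 3) in HC and 86.7 ± 1.14 CPM (SD, n = 2) in controls. HC libraries therefore had a 2.48-fold higher level (log2 fold change 1.31, SE 0.12), and the log2 fold change was 1.37 without HC 3 and 0.80 when scaled on the beta cell reference list. It was 315th of 18407 genes by log2 fold change in HC. In bulk tissue, more cells that express a gene and more RNA per cell cannot be told apart.

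In the MC table Glp1r was far lower. MC libraries had 9.6, 9.94 and 9.73 CPM, and controls had 13.6, 10.8 and 18.2 CPM. All MC libraries lay below all controls, with a log2 fold change of -0.54 (SE 0.19, adjusted p = 0.283 over all genes by the quasi-likelihood test of edgeR), which did not pass the threshold. The value was -0.31 without MC control 3 and -0.16 with library size alone. By library total alone the groups overlapped, at 9.06 to 12.4 CPM in MC and 12 to 12.8 CPM in controls. The control with the highest TMM-scaled value, control 3, also had the largest acinar share (58.4%) and the lowest score of the beta cell reference list in its table, and the part of these in its Glp1r value was not tested.

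In the KMC table Glp1r was at 10 and 3.78 CPM in KMC and 10.1 and 12.2 CPM in KC. KMC 1 was close to KC 1, and KMC 2 stood apart as low. The log2 fold change was -0.69 (SE 0.49, adjusted p = 0.392 from edgeR), and with library size alone it turned to 0.54. Without KMC 1 it was -1.57 (SE 0.55), and without KMC 2 it was -0.13 (SE 0.48). Both fits assume that the lone KMC library varies like the KC group.

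**Figure D1:**
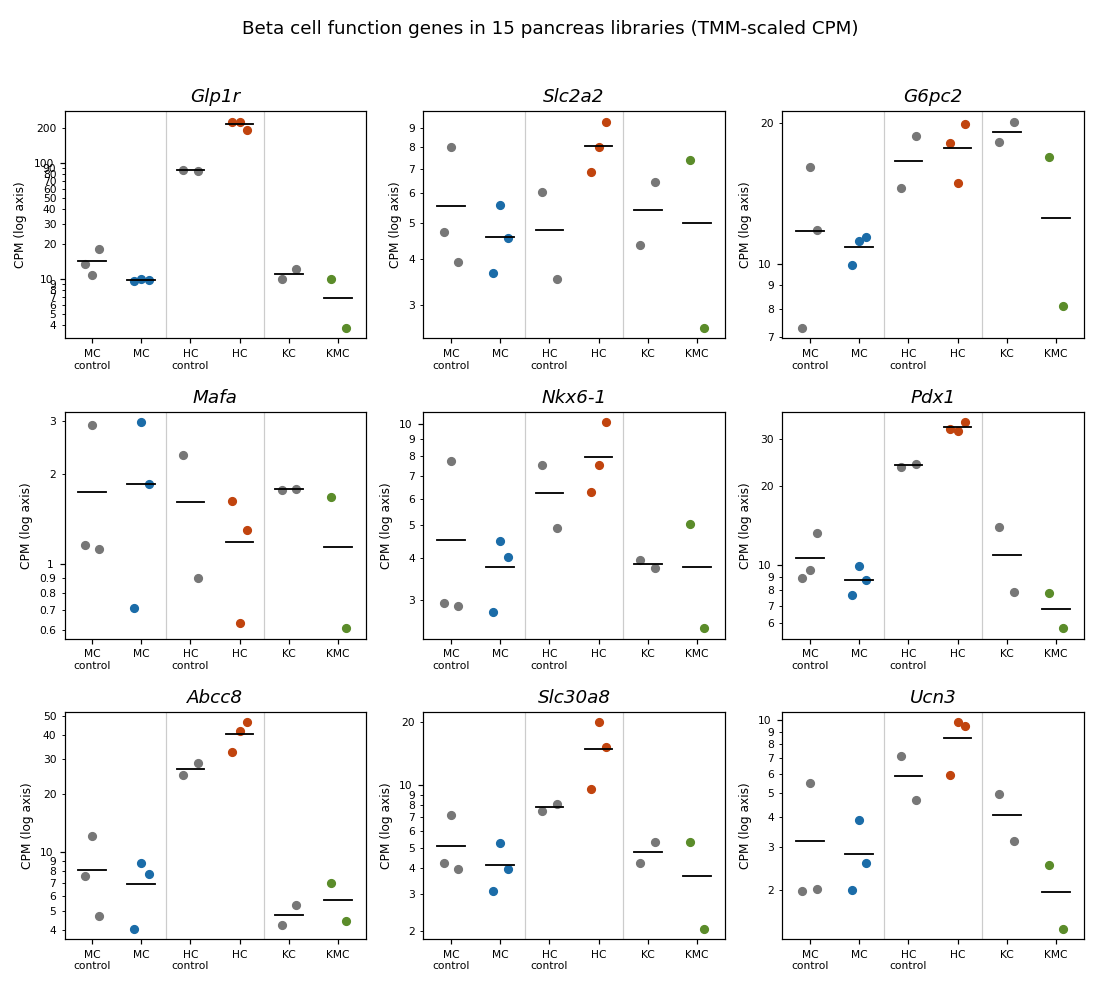
TMM-scaled CPM (log axis) of each of the 9 genes in the 15 libraries, with 1 point per library and a bar at the group mean; vertical lines divide the 3 separately processed tables. Glp1r sat at 194 to 227 CPM in HC and 85.9 to 87.5 CPM in HC controls, and at 18.2 CPM or less in all other libraries.

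Over the 6 groups, the mean level of Glp1r fell in the order HC, HC controls (86.7 CPM), MC controls (14.2 CPM), KC (11.1 CPM), MC (9.76 CPM) and KMC (6.91 CPM). By library total alone the order of the last groups changed, to MC controls (12.3 CPM), MC (11.1 CPM), KMC (10.3 CPM) and KC (7.08 CPM). With TMM scaling MC controls and KC overlapped in range, as did MC and KMC, and levels across tables were not tested. By library total, Glp1r in HC controls was 7.11 times its level in MC controls. After the acinar list was taken out of both library totals, this ratio was 3.66. The same ratio without acinar genes was 0.843 for Ins1, 0.828 for G6pc2, 0.497 for Slc2a2, 1.35 for Pdx1 and 1.89 for Abcc8. The pancreatic polypeptide gene Ppy had a ratio of 49.9, and the source of its reads was not tested.

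Expressed per kilobase of merged exons, Glp1r ranked the highest of the 9 genes in HC (37.1 CPM per kb) and in HC controls (14.9 CPM per kb), ahead of Pdx1 in both. In the other 4 groups G6pc2 ranked the highest and Pdx1 the second, and Glp1r ranked the fourth to the sixth at 1.19 to 2.44 CPM per kb. Mafa was the lowest or next to the lowest in every group, at 0.416 to 0.675 CPM per kb. The change of rank between tables is a description of levels within each library.

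The glucose-handling genes came next. Slc2a2 (chromosome 3, 28697903 to 28731359, plus strand) was at 6.85, 8.01 and 9.36 CPM in HC and 6.05 and 3.53 CPM in controls (log2 fold change 0.75, SE 0.29). All HC libraries lay above both controls, and the value was 0.62 without HC 3, 0.41 without HC control 2 and 1.19 without HC control 1. G6pc2 (chromosome 2, 69211073 to 69227841, plus strand) was at 18.1, 14.9 and 19.9 CPM in HC and 14.5 and 18.7 CPM in controls. The groups overlapped, and the log2 fold change of 0.09 (SE 0.18) turned to -0.02 without HC 3, to -0.08 without HC control 1 and to -0.43 when libraries were scaled on the beta cell reference list. Neither gene passed the test in MC (log2 fold change -0.28, SE 0.30, adjusted p = 0.657 for Slc2a2, and -0.11, SE 0.27, adjusted p = 0.849 for G6pc2, edgeR). In KMC the values were -0.13 (SE 0.55, adjusted p = 0.902, edgeR) for Slc2a2 and -0.62 (SE 0.40, adjusted p = 0.355, edgeR) for G6pc2. Both KMC values of G6pc2, 16.9 and 8.14 CPM, lay below the KC values of 18.2 and 20.1 CPM.

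Abcc8 (chromosome 7, 46104523 to 46180033, minus strand) was at 32.6, 42.1 and 46.5 CPM in HC and at 25 and 28.8 CPM in controls. The groups did not overlap, and the log2 fold change was 0.59 (SE 0.17), or 0.46 without HC 3. In KMC, Abcc8 was the only member with a positive log2 fold change under TMM (0.24, SE 0.40, adjusted p = 0.733, edgeR), although with library size alone all 9 were positive. Slc30a8 (chromosome 15, 52295553 to 52335798, plus strand) was at 9.57, 20 and 15.2 CPM in HC and at 7.52 and 8.09 CPM in controls. This was the largest log2 fold change in HC after that of Glp1r, 0.93 (SE 0.31), or 0.91 without HC 3, with HC 2 well above HC 1. Slc2a2 was ahead of Slc30a8 without HC 2 (0.77 beside 0.67) and without HC control 1 (1.19 beside 0.88). In MC the values were -0.25 (SE 0.39, adjusted p = 0.761, edgeR) for Abcc8 and -0.32 (SE 0.30, adjusted p = 0.606, edgeR) for Slc30a8.

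Among the transcription factors, Pdx1 (chromosome 5, 147269959 to 147275848, plus strand) had the closest replicates in the HC table. It was at 32.9, 32.2 and 34.9 CPM in HC and 23.6 and 24.2 CPM in controls, with no overlap and a log2 fold change of 0.48 (SE 0.10), or 0.43 without HC 3 and -0.05 when scaled on the beta cell reference list. The antisense transcript Plut overlaps Pdx1, and it was at 10.6 CPM in HC and 8.47 CPM in controls, so that without a stated strand setting reads of both genes may be mixed. Nkx6-1 (chromosome 5, 101658139 to 101664996, minus strand) was at 6.26, 7.56 and 10.1 CPM in HC and 7.52 and 4.92 CPM in controls, with overlap. Its log2 fold change was 0.36 (SE 0.29), 0.14 without HC 3 and -0.22 when scaled on the beta cell reference list. Mafa (chromosome 15, 75745490 to 75748228, minus strand), a factor of mature beta cells, was at 1.62, 0.636 and 1.3 CPM in HC and 2.32 and 0.896 CPM in controls. Mafa rested on 20 to 81 counts per library in this table, and it was the only member with a negative log2 fold change in HC (-0.43, SE 0.54), which was -0.51 without HC 3 and turned to 0.41 without HC control 1.

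None of the 3 factors passed the test in MC, with log2 fold changes of -0.26 (SE 0.19, adjusted p = 0.502) for Pdx1, -0.27 (SE 0.42, adjusted p = 0.76) for Nkx6-1 and 0.09 (SE 0.57, adjusted p = 0.944) for Mafa from edgeR. In KMC they were -0.68 (SE 0.40, adjusted p = 0.305) for Pdx1, -0.04 (SE 0.47, adjusted p = 0.969) for Nkx6-1 and -0.66 (SE 0.64, adjusted p = 0.534) for Mafa from edgeR. KMC 1 had 7.81 CPM of Pdx1 and KC 2 had 7.9 CPM, so the absence of overlap for Pdx1 rests on a narrow gap.

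Ucn3 (chromosome 13, 3940688 to 3945349, minus strand) was at 5.97, 9.82 and 9.51 CPM in HC and 7.14 and 4.71 CPM in controls. Its log2 fold change was 0.51 (SE 0.30), with HC 1 between the controls. It was 0.40 without HC 3, 0.24 without HC control 2, 0.84 without HC control 1 and -0.07 when scaled on the beta cell reference list. In KMC it was at 2.53 and 1.38 CPM against 4.97 and 3.17 CPM in KC. That was the largest difference of the 9 genes in this table (log2 fold change -1.06, SE 0.51, adjusted p = 0.23 from edgeR), it did not pass the test, and it turned to 0.34 with library size alone. In MC the log2 fold change was -0.18 (SE 0.46, adjusted p = 0.857 from edgeR).

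**Figure D2:**
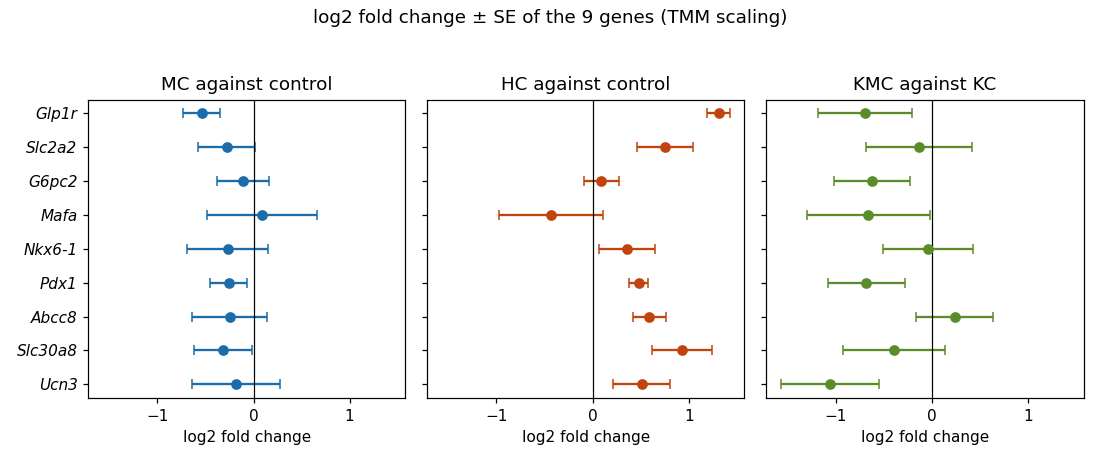
log2 fold change (horizontal axis) with bars of 1 SE for each of the 9 genes in MC against control, HC against control and KMC against KC, from edgeR with TMM scaling. Glp1r stood at 1.31 in HC, and at -0.54 in MC and -0.69 in KMC, where no gene passed the test and where library size alone turned the KMC values of 8 genes from negative to positive.

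Counted over the 9 genes, 8 had a positive log2 fold change in HC, and 5 did not overlap and were higher (Glp1r, Slc2a2, Pdx1, Abcc8 and Slc30a8). Over all genes tested in HC, 17.5% were higher without overlap and 0.565% were called, meaning that the adjusted p did not exceed 0.05 and the log2 fold change was 1 or more in size. The rule used this comparison, and nothing is read from these counts. The share of all genes that were lower without overlap in HC is not given here. The median log2 fold change of the 9 genes was 0.51, beside 0.00 for all 18407 genes tested.

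In MC, 8 of the 9 genes had a negative log2 fold change with a median of -0.26, beside -0.02 for all 13902 genes tested. Of these genes 0 were called, as were 0% of all genes tested by edgeR, where 2038 had an unadjusted p under 0.05 and DESeq2 called 453. Only Glp1r was lower without overlap, as were 9.89% of all genes. With library size alone the median of the 9 genes was 0.02, beside 0.29 for all genes, and G6pc2, Pdx1, Abcc8 and Ucn3 turned positive. Without MC control 2, whose beta cell reference score was the highest of its table, the median was 0.15. Marker lists of other cell types were not even between MC and controls. All 11 leukocyte genes tested had a positive log2 fold change (median 1.37). Their list summed to 820 to 1183 CPM in MC and 399 to 1077 CPM in controls. All 6 adipocyte genes were positive (median 3.35), with Fabp4 the gene of highest mean. Their sums were 58.7 to 175 CPM in MC and 32.1 to 43.6 CPM in controls. All 8 fibroblast genes were positive (median 0.69). Of 7 stomach genes 5 were positive and 2 negative (median 0.83), with sums of 315 to 568 CPM in MC and 311 to 794 CPM in controls. Of 35 acinar genes 29 were negative (median -0.53), and 0 genes of these lists were called. The part of these markers in the members' values was not tested.

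In KMC, 8 of the 9 genes were negative under TMM with a median of -0.62, beside 0.03 for all 15733 genes tested. By edgeR 0 of the 9 genes were called, and 0.0191% of all genes were, namely the sex-linked Xist, Ddx3y and Kdm5d. Kdm5d was named after its value was seen. Without overlap 5 were lower (Glp1r, G6pc2, Mafa, Pdx1 and Ucn3), beside 30.9% of all genes. With library size alone the median of the 9 genes was 0.79, beside 1.47 for all genes. The acinar share was 71.7 and 62.8% in KC and 51.4 and 26.2% in KMC, and the leukocyte list summed to 318 and 304 CPM in KC and 969 and 2738 CPM in KMC. All 8 fibroblast genes had a positive log2 fold change in KMC (median 2.71, 0 called). Their sums were 431 and 891 CPM in KC and 2141 and 6301 CPM in KMC. The part of this difference in composition in the members' values was not tested.

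Since pools can differ in their amount of islet tissue, the members were also set beside the beta cell reference list, as the median centred log2 CPM of its 25 genes. The score of this list was 0.54 higher in HC than in controls on the log2 scale. The difference between KMC and KC was -0.57, and that between MC and its controls was -0.07. Relative to this score, Glp1r was 0.77 higher in HC than in controls, Slc30a8 0.33 and Slc2a2 0.25 higher. Abcc8 (0.04), Ucn3 (-0.04) and Pdx1 (-0.06) were close to the list, and Nkx6-1 (-0.18), G6pc2 (-0.45) and Mafa (-0.93) were below it. The median of the 9 genes relative to the list was -0.04 in HC, -0.15 in MC and -0.08 in KMC. Glp1r was at -0.44 in MC and -0.28 in KMC on this scale. With the hormones Ins1, Ins2 and Iapp as the reference instead, the medians were 0.15 in HC, -0.25 in MC and 0.65 in KMC, and Glp1r turned to 0.45 in KMC. KC 1 stood apart here, with a hormone score of 1.23 beside a reference score of 0.32, where KC 2 had 0.17 and 0.21. Relative to the hormones, Glp1r was at -0.94 in KC 1, 0.39 in KC 2, 0.47 in KMC 1 and -0.12 in KMC 2.

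How far the members followed beta cell genes from library to library depended on the reference. Within groups, the SD of log2 CPM over the 15 libraries (9 degrees of freedom) fell from 0.533 to 0.252 for Nkx6-1 when the score was subtracted. It also fell for Abcc8 (0.483 to 0.24), Slc30a8 (0.509 to 0.246), Ucn3 (0.576 to 0.311), Slc2a2 (0.523 to 0.312), G6pc2 (0.394 to 0.294) and Mafa (0.847 to 0.697). For Glp1r and Pdx1 it rose, from 0.387 to 0.486 and from 0.275 to 0.412. Relative to the 3 hormones Ins1, Ins2 and Iapp the SD was 0.568 for Glp1r and 0.377 for Pdx1, again above that of their log2 CPM. It was 0.464 for Abcc8, 0.493 for Slc30a8, 0.391 for G6pc2 and 0.454 for Slc2a2, close to the SD of log2 CPM for the first 3 of these, and 0.327 for Nkx6-1, 0.322 for Ucn3 and 0.629 for Mafa. Pdx1 thus had a larger SD than Slc30a8 relative to the list and a smaller one relative to the hormones. In the MC table, control 2, with a score of 0.63, had 7.74 CPM of Nkx6-1 against 2.94 and 2.88 CPM in the other controls, while its 10.8 CPM of Glp1r was the lowest of the 3 controls.

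**Figure D3:**
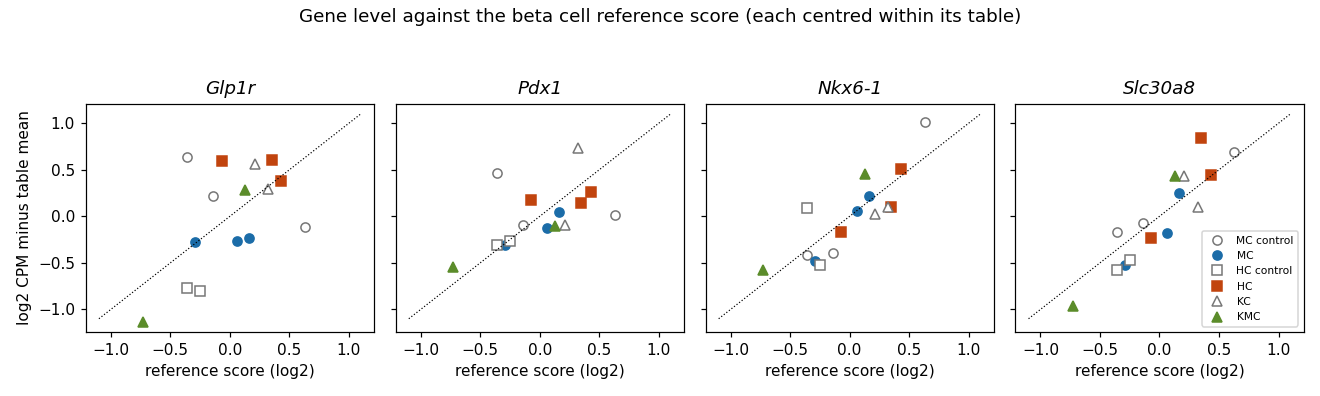
log2 CPM minus the mean of the table (vertical axis) against the beta cell reference score (horizontal axis, log2) for Glp1r, Pdx1, Nkx6-1 and Slc30a8, with 1 point per library and a dotted line where gene and score move equally. The within-group SD of gene minus score was 0.252 for Nkx6-1, 0.246 for Slc30a8, 0.486 for Glp1r and 0.412 for Pdx1. This SD is taken around the mean of each group and not around the line. Relative to the 3 hormones it was 0.493 for Slc30a8 and 0.377 for Pdx1.

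The genes whose log2 CPM, centred within each table, was most like that of Glp1r over the 15 libraries were Myo5c (Pearson's r = 0.939), Atp8b1 (0.936), Fcgbp (0.933), Rhpn2 (0.930), Plxna2 (0.926), Sgms2 (0.925), Slc6a9 (0.922), Ehhadh (0.920), Dsg2 (0.918) and Rbm47 (0.917). They were ranked among 12063 genes with a mean of at least 1 CPM in each table, and the points share libraries, depth and the contrasts between groups. Myo5c, an epithelial myosin, was at 122 CPM in HC, 72.5 CPM in its controls, 84.7 CPM in MC and 110 CPM in its controls. Fcgbp, a mucus protein, was at 61.9 CPM in HC and 18.4 CPM in controls. Among the members, Pdx1 was the most like Glp1r (r = 0.728, rank 488), then Slc30a8 (0.681, rank 750) and Slc2a2 (0.615, rank 1277). G6pc2 (0.460), Ucn3 (0.394), Nkx6-1 (0.264), Abcc8 (0.252) and Mafa (0.112) followed.

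Marker lists of other cell types were not even between HC and controls, although 0 stomach or ductal genes and 1 leukocyte gene were called. Of 9 stomach genes tested, 8 had a positive log2 fold change and 7 were higher without overlap, with a median of 1.31. Gkn1 and Gkn2, gastrokines of the stomach surface, were at 2704 and 1822 CPM in HC and 501 and 266 CPM in controls, and neither was called. Of 12 ductal genes 10 were positive, 6 were higher and 2 were lower without overlap, and 0 were called. The mucin Muc1 (1174 CPM in HC, 543 CPM in controls) and the keratin Krt19 (1810 and 928 CPM) were among the positive. Spp1, the ductal gene of highest mean in this table, was lower without overlap. It was at 1386, 1531 and 2057 CPM in HC and at 2128 and 2409 CPM in controls. All 12 leukocyte genes were negative, with sums of 1889 to 2699 CPM in HC and 5010 and 2695 CPM in controls, of which Lyz2 had the highest mean over the table and 1, the B cell gene Cd79a (6.82 CPM in HC, 16.9 CPM in controls), was called. The ductal list summed to 8518 to 10383 CPM in HC and 7216 and 7566 CPM in controls. Of 6 intestine genes tested, 4 were positive, 3 were higher and 1 was lower without overlap, with a median of 0.84 and 0 called. The intestine list summed to 77.1 to 130 CPM in HC and to 47.4 and 42.8 CPM in controls. Olfm4, its gene of highest mean, was at 52.8 to 112 CPM in HC and at 33.6 and 24 CPM in controls. In that list Sis, Apoa4, Cdx1 and Cdx2 were at or below 3 counts in all 5 libraries. The part of the stomach, intestine, ductal and leukocyte genes in the Glp1r value was not tested.

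**Figure D4:**
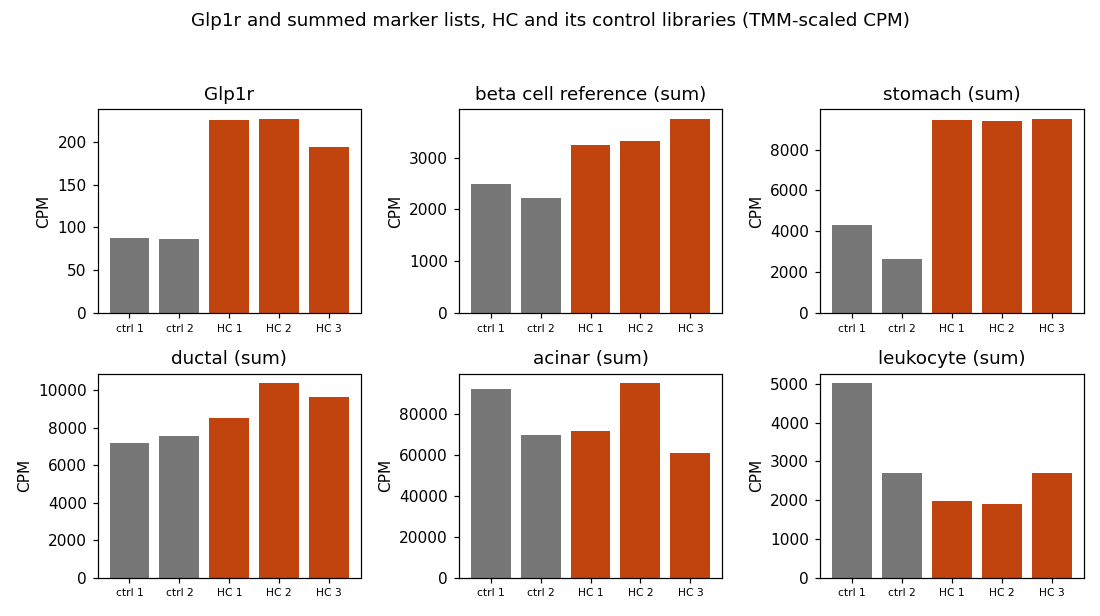
TMM-scaled CPM of Glp1r and summed CPM of 5 marker lists (vertical axes, from 0) in the 2 control and 3 HC libraries, with 1 bar per library. Glp1r, the beta cell reference, the stomach list and the ductal list were higher in each HC library than in each control, and the acinar list overlapped.

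The other genes of the pathway came from lists. Of 10 incretin and class B receptors tested in HC, 6 had a positive and 4 a negative log2 fold change, with a median of 0.08 and 0 called. Gipr, the receptor for the incretin GIP, was at 3.23 CPM in HC and 1.68 CPM in controls (log2 fold change 0.94, SE 0.28), and Vipr2, a receptor for the neuropeptide VIP, was at 15.9 and 11.7 CPM. The receptors Crhr1 and Ghrhr were at or below 3 counts in all 5 libraries. Below the GLP-1 receptor, the 19 genes of cyclic AMP signalling had a median of -0.12 with 8 positive, 11 negative and 0 called. Adcy5, an adenylyl cyclase, was at 12.5 CPM in HC and 20.3 CPM in controls, and Pde4d, a phosphodiesterase, was at 58 and 45.5 CPM.

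Genes of glucose sensing and of the beta cell program had mostly positive log2 fold changes in HC, where 17.5% of all genes tested were higher without overlap. Cacna1c and Doc2b are named after their values were seen. Of 14 glucose sensing and KATP channel genes, 11 were positive, 7 were higher without overlap and 1, Cacna1c, was lower without overlap (median 0.25, 0 called), with the transporter Slc2a1 at 63.9 CPM in HC and 38.9 CPM in controls. Of 15 other beta cell transcription factors tested, 14 were positive, 9 were higher and 1 was lower without overlap (median 0.39, 0 called), with Rfx6 at 26.9 and 13.5 CPM and Pax6 at 14.5 and 7.6 CPM. Of 17 genes of granule exocytosis 15 were positive, 7 were higher and 1, Doc2b, was lower without overlap (median 0.46, 0 called), and the small GTPase Rab27a was at 110 and 60.1 CPM. Of 25 beta cell reference genes 24 were positive with a median of 0.58, and 1, the sulfate donor synthase Papss2 (195 and 74 CPM), was called. All 5 other islet hormones were positive but 0 were higher without overlap, with glucagon, Gcg, at 1874 and 1067 CPM and Sst at 149 and 85.3 CPM. HC 1 had 977 CPM of Gcg, between the controls at 895 and 1238 CPM.

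In MC the same lists had medians near that of all genes, and 0 genes were called in any of them. Other islet lists lay further away, also with 0 called. The alpha and delta cell list had a median of 0.47, with 5 of 6 genes positive. The list of beta cell immaturity and dedifferentiation had a median of 0.34, with 6 of 6 positive. Their medians were 0.49 and 0.24 in HC, and -0.02 and 0.53 in KMC. Of 7 class B receptors 5 were positive (median 0.12), with Pth1r at 3.24 CPM in MC and 1.54 CPM in controls (log2 fold change 1.06, SE 0.39, adjusted p = 0.285, edgeR). Of 18 cyclic AMP genes 10 were positive and 8 negative (median 0.06), and Prkar2b, a regulatory subunit of protein kinase A, had a log2 fold change of 0.98 (SE 0.35, adjusted p = 0.274, edgeR). Beta cell transcription factors had a median of -0.03 over 14 genes, glucose sensing genes 0.02 over 13 and exocytosis genes -0.10 over 16. The 24 beta cell reference genes tested had a median of -0.15, with 18 negative.

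In KMC 0 genes of these lists were called as well. Of 7 class B receptors 4 were positive and 3 negative (median 0.38), with Vipr1 at 12.9 CPM in KMC and 36.7 CPM in KC (log2 fold change -1.51, SE 0.45, adjusted p = 0.119, edgeR) and Pth1r at 6.83 and 1.43 CPM (log2 fold change 2.24, SE 0.49, adjusted p = 0.0802, edgeR). Of 18 cyclic AMP genes 12 were positive (median 0.20), led by the adenylyl cyclases Adcy1 and Adcy5 at 1.98 and 4.38 CPM in KMC and 0.324 and 1.39 CPM in KC. Glucose sensing genes had a median of -0.03 over 13, exocytosis genes -0.08 over 16 and beta cell transcription factors 0.10 over 14. The insulin gene Ins1 averaged 252 CPM (SD 90.3, n = 2) in KMC against 637 CPM (SD 352, n = 2) in KC (log2 fold change -1.34, SE 0.68, adjusted p = 0.254, edgeR). With library size alone the median gene in this table rose by 1.47 on the log2 scale, so these signs are relative to TMM.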

How the data were processed

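Pancreas RNA of 15 pools was sequenced as 100-bp paired-end reads. Per the submitters' processing notes, the authors used STAR 2.6.1a and HTSeq 0.6.1 with genome build mm10, and the authors deposited unnormalized counts for each gene in separate tables for MC, HC and KMC. The counter's strand setting is not given in the sources used here. The labels name Trizol and, for the HC, KC and KMC libraries, a stranded KAPA kit, while the study's methods name RNeasy and TruSeq. The MC table lists 15175 genes, the others 49585. The authors also deposited a table of fold changes and p-values for MC against control, which was not used.

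Groups came from the labels. Within each table, genes kept by filterByExpr were TMM-scaled and groups were compared in R 4.3.3 by the quasi-likelihood test of edgeR 4.0.16 with Benjamini-Hochberg adjustment. Called genes had an adjusted p no larger than 0.05 and a log2 fold change of 1 or more in size. SE was obtained from the size of the log2 fold change over the root of the F statistic. CPM values are TMM-scaled unless said otherwise. The prior count for log2 CPM was 0.5, and 3 counts (0.0774 to 0.101 CPM) were taken as the floor. The edgeR fit with TMM scaling was first tested on simulated data for each comparison, and the alternative fits were not. The members, the 22 gene lists and the tests were chosen with earlier results of these data known. Named list genes were, per list and comparison, the 2 with the largest absolute log2 fold change and a mean of at least 1 CPM, besides the islet hormones, Map4k1, Ptprc, Xist, Ddx3y and the 10 genes most like Glp1r. The text gives these genes only in part, and 2 genes that the rule names are not reported here. Other gene names mark list contents at the floor or most abundant in a list. Alternatives were DESeq2 1.42.0, other scalings and filters, a replicate block and leaving out each library. Replicate numbers did not pair the samples.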

Additional observations from a re-analysis of the deposited data

How the results depend on the processing

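The counts of called genes depended on the test and the scaling, and the cause was not tested. In MC (0 called) DESeq2 called 453 genes, library size alone 1 and scaling on the beta cell reference list 524. In HC (104) DESeq2 called 467, library size without the acinar list 49, scaling on the reference list 1220, no filter on low counts 395 and the fit with the KC and KMC libraries 1. In KMC (3) DESeq2 called 2159, library size alone 4715, library size without the acinar list 1628, the reference list 1996, no filter 9 and the shared fit 3230. Replicate numbers do not pair these pools (same-number correlations of -0.297 to 0.296), and a replicate block called 0 genes in MC, 339 in HC and 2464 in KMC.

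Without 1 library, 0 to 718 genes were called in MC (718 without MC control 2, 171 without MC 1), 0 to 379 in HC (379 without HC 1, 3 without HC 3, 0 without HC 2 or either control) and 0 to 2312 in KMC (2312 without KMC 1, 76 without KMC 2, 0 without either KC library). Calls of the 9 genes in HC are not given because the choice of genes used that comparison. The lone library left in a group was assumed to vary like the other group.

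The median log2 fold change of the 9 genes in HC (0.51) was -0.05 under the reference list scaling and 0.41 to 0.71 without 1 library, and in KMC (-0.62) it was 0.79 with library size alone and -1.24 to -0.07 without 1 library. Relative to the hormones Ins1, Ins2 and Iapp in place of the reference list, the median was -0.25 in MC, 0.15 in HC and 0.65 in KMC. The KMC value includes KC 1, whose hormone score was 1.23 beside a reference score of 0.32.

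Signs of single genes turned as follows. In HC, scaling on the reference list gave -0.43 for G6pc2, -0.22 for Nkx6-1, -0.05 for Pdx1 and -0.07 for Ucn3. Without 1 library the HC values ran from -0.08 to 0.28 for G6pc2 and -0.97 to 0.41 for Mafa, and with no turn of sign from 0.41 to 1.19 for Slc2a2, 0.08 to 0.69 for Nkx6-1, 0.67 to 1.17 for Slc30a8 and 0.24 to 0.84 for Ucn3. In MC, library size alone gave 0.17 for G6pc2, 0.10 for Pdx1, 0.02 for Abcc8 and 0.07 for Ucn3. Without 1 library the MC values ran from -0.70 to -0.31 for Glp1r, -0.38 to -0.06 for Pdx1, -0.46 to 0.08 for Slc2a2, -0.36 to 0.19 for G6pc2, -0.43 to 0.71 for Mafa, -0.50 to 0.37 for Nkx6-1, -0.51 to 0.15 for Abcc8, -0.54 to 0.01 for Slc30a8 and -0.48 to 0.49 for Ucn3. In KMC, library size alone gave 0.54 for Glp1r, 1.07 for Slc2a2, 0.67 for G6pc2, 0.61 for Mafa, 1.28 for Nkx6-1, 0.79 for Pdx1, 0.84 for Slc30a8 and 0.34 for Ucn3. Library size without the acinar list gave 0.35 for Slc2a2, 0.48 for Nkx6-1 and 0.09 for Slc30a8, the reference list gave 0.28, 0.45 and 0.04 for the same genes, and no filter gave 0.05 for Nkx6-1. Without 1 library the KMC values ran from -1.57 to -0.13 for Glp1r, -1.08 to 0.46 for Slc2a2, -1.25 to -0.17 for G6pc2, -1.55 to -0.07 for Mafa, -1.04 to -0.23 for Pdx1, -1.56 to -0.66 for Ucn3, -0.64 to 0.41 for Nkx6-1, -0.13 to 0.55 for Abcc8 and -1.24 to 0.16 for Slc30a8. The adjusted p of Glp1r ranged over the alternatives from 0.0494 to 0.769 in MC, the lowest without MC control 2 (DESeq2 or edgeR). Glp1r in HC (1.31) was 0.80 when scaled on the reference list and 0.77 relative to the reference score. Relative to the hormones Ins1, Ins2 and Iapp it was 0.96, and it was 1.27 to 1.38 under the other alternatives. Mafa had the fewest counts of the 9 genes in all 15 libraries, 20 to 127 per library.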

Other observations

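Among the list genes in the HC table, Cdhr3, a cadherin known from ciliated airway cells, stood apart from Glp1r and from every beta cell gene in size. It was at 61.3 CPM (2076 counts) in HC 1, 225 CPM (7089 counts) in HC 2 and 136 CPM (4293 counts) in HC 3. Both controls had 0.143 and 0.102 CPM, from 5 and 4 counts. Both KC libraries and KMC 1 had 0 counts, and KMC 2 had 4. Foxj1, a transcription factor of ciliated cells, was at 6.31 CPM in HC and 9.86 CPM in controls, so the list that holds both genes did not move together.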
